A study of Mus musculus with 2 samples.

Results

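The Mesp transcription factors and the Notch signalling genes that act around them were followed by their nuclear RNA and by the accessibility of the chromatin near their start sites. The set held 10 genes, chosen by symbol from the 32285 genes of the RNA table: Mesp1, Mesp2, Dll1, Dll3, Notch1, Notch2, Lfng, Hes1, Hes7 and Msgn1. All 10 were in the table. Within 50 kb of their starts lay 193 of the 229480 accessibility peaks, the open regions that the authors called. Mesp1 and Mesp2 start 16939 bases apart on chromosome 7 and share 18 of these peaks, so the 193 peaks make 211 pairs of a gene and a peak.

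The data came from 1 multiome preparation of mouse embryos at embryonic day 7.0, in which RNA and open chromatin were read from the same nucleus with a shared barcode. There was 1 library for each assay, made from pooled embryos dissociated with TrypLE, so there was no replicate and no test between conditions. Intervals below cover counting error only. The labels disagree among themselves: the titles, age and protocols describe E7.0 embryos, while the source fields name a section of the small intestine for RNA and the distal colon for accessibility, the cell type field names Goblet cells and the strain field reads RedMUC298trTg. Of 8 goblet and intestinal markers, 7 were near 0: the kept nuclei held 17 UMIs (counted RNA molecules) of the mucin Muc2, 5 of Clca1, 6 of Tff3, 12 of Agr2, 36 of Zg16, 39 of Fcgbp and 122 of Spdef, against 10855 of Mesp1. The eighth, Vil1, a gene of absorptive epithelia, had 3994 UMIs and was at 86.1 CPM (UMIs scaled to a total of 1000000) in visceral endoderm-like nuclei against 6.35 CPM in mesoderm-like nuclei. The nuclei are therefore described below as embryonic.

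Of 15341 barcodes, 12796 nuclei were kept, with medians of 10471 UMIs and 17350 peak counts, and no barcode was repeated. Nuclei were clustered by accessibility with the peaks near the 10 genes left out, and clusters were named from RNA markers that included none of the 10 genes. The main comparison set 1147 embryonic mesoderm-like nuclei against 3616 epiblast-like nuclei. No cluster was named primitive streak-like in the clustering used here. Cluster 11 (490 nuclei) had the highest streak score among the unnamed clusters and all 10 streak markers raised, but its mesoderm score of 2.21 (mean log2 fold of the markers over the other nuclei) was above its streak score of 2.01. Its lack of a name was not stable: in the 6 other clusterings tried, 73.7% to 97.1% of its nuclei fell into clusters named embryonic mesoderm-like. At resolution 2, a cluster of 485 nuclei shared most of its leading genes (highest fold over the other nuclei). That cluster was named embryonic mesoderm-like, with a mesoderm score of 2.19 and a streak score of 1.95. Cluster 4 (988 nuclei) had a streak score of 0.97, above its epiblast score of 0.38. It was also left unnamed, because its 10 leading genes held Fst, a parietal endoderm marker, and no streak marker. A cluster was named primitive streak-like in 2 of the 6 other clusterings: with the stricter filter (972 nuclei) it took 79.5% of cluster 4 and 6.64% of cluster 11, and with RNA clusters (656 nuclei) 34.7% and 20.8%. Cluster 4 was thus closer than cluster 11 to the clusters that were named streak. However, 63.6% of cluster 4 fell into clusters named epiblast-like with RNA clusters, and 35.2% did at resolution 0.5. Clusters 4 and 11 are called by number, and a statement about cluster 11 describes streak and mesoderm markers present together, not a separate streak population.

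During gastrulation, epiblast cells pass through the primitive streak and leave it as mesoderm. Mesp1 and Mesp2 are neighbouring basic helix-loop-helix transcription factors: Mesp1 marks the first mesoderm leaving the streak, including the progenitors of the heart, and Mesp2 is best known for setting segment borders and polarity in the presomitic mesoderm. In the Notch pathway a ligand on one cell, such as Dll1, binds a receptor on its neighbour, such as Notch1 or Notch2. The receptor is then cut, and its intracellular part joins RBPJ in the nucleus to switch on targets such as the Hes repressors. Lfng adds sugars to the receptor and changes its response to ligands, and Dll3 is a divergent ligand that acts inside the cell. Msgn1 is a transcription factor of the presomitic mesoderm.

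Promoter sequence is shown for Mesp1, Mesp2 and Lfng, whose RNA was higher in mesoderm-like nuclei while their promoter peaks rose less. The log2 folds of the promoter peaks over epiblast-like nuclei were 0.59 for Mesp1, 0.56 for Lfng and 1.66 for Mesp2. RefSeq promoters (GRCm38.p6, the assembly also called mm10) matched 9 of the 10 genes. Each line gives, 5′ to 3′, the bases lying before both the RefSeq start and the start in the deposited table, and capitals mark the letters of a T-box half-site (AGGTGT), an RBPJ site (TGGGAA) or a TCF/LEF site (CTTTGA) on either strand. The stretches are chr7:79793789-79793840 (minus strand) for Mesp1, chr7:79810477-79810726 (plus strand) for Mesp2 and chr5:140607091-140607319 (plus strand) for Lfng.
Mesp1: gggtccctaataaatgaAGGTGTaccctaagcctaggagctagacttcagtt
Mesp2: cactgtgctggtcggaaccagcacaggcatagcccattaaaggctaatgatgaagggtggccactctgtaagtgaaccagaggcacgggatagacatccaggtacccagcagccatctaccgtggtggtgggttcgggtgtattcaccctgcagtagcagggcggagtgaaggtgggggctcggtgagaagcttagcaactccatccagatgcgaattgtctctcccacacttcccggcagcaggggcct
Lfng: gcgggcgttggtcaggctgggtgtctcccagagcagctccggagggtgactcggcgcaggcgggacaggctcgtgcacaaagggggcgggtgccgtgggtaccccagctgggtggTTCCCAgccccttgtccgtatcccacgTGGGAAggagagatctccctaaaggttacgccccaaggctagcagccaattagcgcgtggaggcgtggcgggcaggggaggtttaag
Over the 250 bases before the RefSeq start, the T-box letters were found in 1 of the 9 genes (Mesp1, at position -233) and in 11.8% of 32817 RefSeq promoters of that length. The RBPJ letters were found in 3 of the 9 (Lfng at -135 and -108, Hes7 at -180 and Msgn1 at -114), and in 21.6% of all promoters. The TCF/LEF letters were found in 2 of the 9 (Mesp1 at -72 and -31, Msgn1 at -202 and -143) and in 13.8% of all. The T-box and RBPJ capitals printed above are those of Mesp1 and Lfng, and the Mesp2 stretch holds none of the 3 motifs. These are matches of letters only.

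Mesp1 and Mesp2 RNA was high in mesoderm-like nuclei and cluster 11 and low in epiblast. Mesp1 (ENSMUSG00000030544) stood at 28.3 CPM in epiblast-like nuclei, 41.1 in cluster 4, 467 in cluster 11 and 326 CPM in mesoderm-like nuclei. It was 11.5-fold higher in mesoderm-like than in epiblast-like nuclei (95% interval 10.7 to 12.3) and 16.5-fold higher in cluster 11 (15.4 to 17.7). Extraembryonic mesoderm-like nuclei followed at 129 CPM, with cluster 17, which has no name, at 118 CPM and an overlapping interval, and then haemato-endothelial progenitor-like nuclei at 61.3 CPM. Epiblast-like, extraembryonic ectoderm-like (25.5 CPM) and visceral endoderm-like nuclei (23.3 CPM) lay at the low end.

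Mesp2 (ENSMUSG00000030543) stood at 1.60 CPM in epiblast-like nuclei, 3.09 in cluster 4, 51.1 in cluster 11 and 21.4 CPM in mesoderm-like nuclei. The fold over epiblast was 13.4 (10.1 to 18.0) in mesoderm-like nuclei and 32.0 (24.2 to 42.9) in cluster 11. Mesp2 was the only gene of the set called different between those 2 classes, at 0.42 of its cluster 11 level in mesoderm-like nuclei. Outside them Mesp2 was at most 4.52 CPM, in cluster 17, and extraembryonic mesoderm-like nuclei, which held Mesp1, had 2.03 CPM with an interval of 0.744 to 4.41 that covered the epiblast level. Msgn1 (ENSMUSG00000047002) gave 6 UMIs in all kept nuclei, of which 1 was in cluster 11 and 0 in epiblast-like, cluster 4 or mesoderm-like nuclei. None of the 1147 mesoderm-like nuclei held an Msgn1 UMI. At this depth a share of such nuclei with a UMI below 0.262% (3 in 1147) cannot be told from 0. The count of 0 does not limit the share of nuclei that express the gene.

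**Figure D1:**
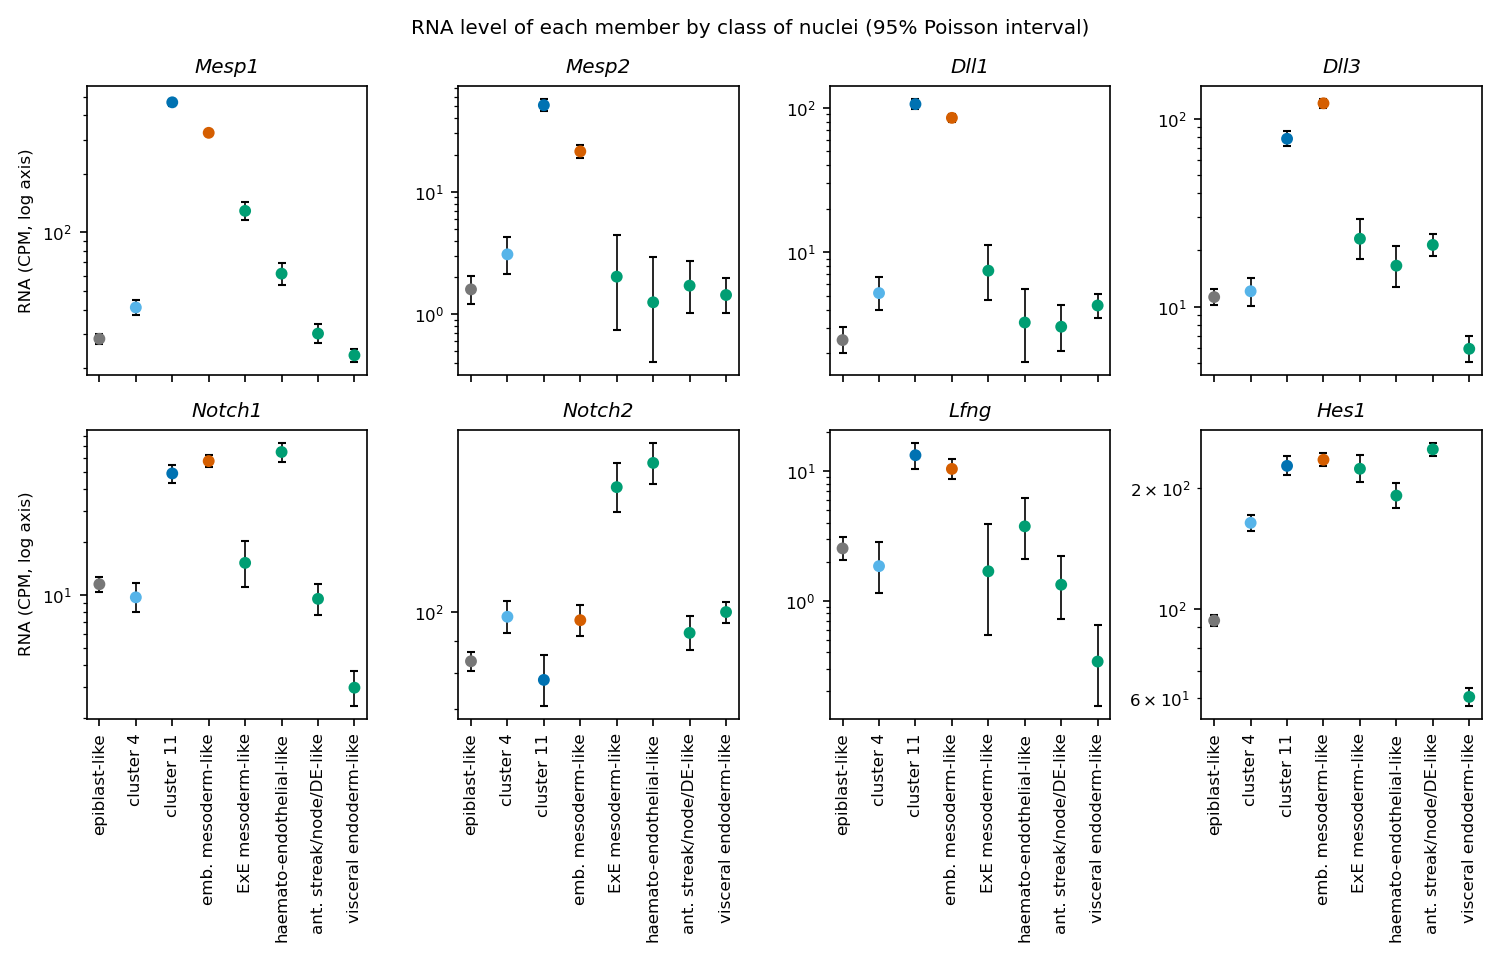
RNA level in CPM (log axis, a different range in each panel) of the 8 genes with at least 50 UMIs over mesoderm-like and epiblast-like nuclei, in 8 classes of nuclei of 1 library, with exact Poisson 95% intervals. Mesp1, Mesp2, Dll1, Dll3 and Lfng peak in cluster 11 and embryonic mesoderm-like nuclei, Notch1 and Notch2 also reach high levels in haemato-endothelial progenitor-like nuclei, and Hes1 is spread over all mesodermal and anterior streak classes.

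The 2 Delta ligands rose with the Mesp genes but differed in order. Dll1 (ENSMUSG00000014773), the ligand that activates Notch on neighbouring cells, was at 2.46 CPM in epiblast-like nuclei, 5.20 in cluster 4, 106 in cluster 11 and 84.9 CPM in mesoderm-like nuclei. Its fold in mesoderm-like over epiblast-like nuclei, 34.5 (27.9 to 43.1), was the largest of the 8 genes tested, and in cluster 11 it was 42.9 (34.5 to 53.9). Dll3 (ENSMUSG00000003436) was at 11.2 CPM in epiblast-like nuclei, 12.1 in cluster 4, 78.2 in cluster 11 and 121 CPM in mesoderm-like nuclei. Its fold over epiblast was 10.7 (9.63 to 12.0) in mesoderm-like nuclei and 6.95 (6.08 to 7.95) in cluster 11, the reverse of the order seen for Dll1, and the intervals of the levels did not overlap for either gene. Dll1 was the only member to reach 2-fold in cluster 4, at 2.12 (1.5 to 2.96), with Mesp2 just below at 1.93 (1.24 to 2.98). The Dll1 level there rested on 59 UMIs. Its interval (3.96 to 6.71 CPM) overlapped that of visceral endoderm-like nuclei, at 4.27 CPM (3.52 to 5.13). Dll3 was at 12.1 CPM in cluster 4 against 11.2 CPM in epiblast.

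The receptors behaved differently from each other. Notch1 (ENSMUSG00000026923) was at 11.5 CPM in epiblast-like nuclei, 9.70 in cluster 4, 48.8 in cluster 11 and 57.4 CPM in mesoderm-like nuclei, a fold of 4.98 (4.42 to 5.63) in mesoderm-like over epiblast-like nuclei. Its highest level, 64.6 CPM, was in haemato-endothelial progenitor-like nuclei, with an interval of 56.9 to 73.0 that overlapped that of mesoderm (53.2 to 61.8). Extraembryonic mesoderm-like nuclei had 15.2 CPM of Notch1. Notch2 (ENSMUSG00000027878) was spread across the embryo, at 83.5 CPM in epiblast-like, 98.4 in cluster 4, 78.0 in cluster 11, 97.2 in mesoderm-like and 100.1 CPM in visceral endoderm-like nuclei. Its mesoderm over epiblast fold was 1.16 (1.09 to 1.24), below the 2-fold used for a call. Notch2 was highest in haemato-endothelial progenitor-like (173.2 CPM) and extraembryonic mesoderm-like nuclei (158.5 CPM), whose intervals overlapped.

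Lfng (ENSMUSG00000029570), the fringe glycosyltransferase, was sparse: 2.54 CPM in epiblast-like nuclei, 1.85 in cluster 4, 13.3 in cluster 11 and 10.4 CPM in mesoderm-like nuclei. The fold over epiblast was 4.10 (3.13 to 5.40) in mesoderm-like nuclei, and Lfng was at 0.34 CPM in visceral endoderm-like nuclei. Among the targets, Hes1 (ENSMUSG00000022528) climbed in smaller steps, from 93.5 CPM in epiblast-like nuclei to 164 in cluster 4, 227 in cluster 11 and 235 CPM in mesoderm-like nuclei, a fold of 2.51 (2.39 to 2.64). Hes1 was also high in anterior streak, node and definitive endoderm-like nuclei (249 CPM), where Mesp1 was at 30.1 CPM. Hes7 (ENSMUSG00000023781), the oscillating repressor of the segmentation clock, gave 61 UMIs in all kept nuclei, 15 of them in cluster 11 (2.59 CPM) against 12 in epiblast-like nuclei (0.31 CPM), under the minimum of 50 UMIs for a call.

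In all, 8 of the 10 genes had at least 50 UMIs over mesoderm-like and epiblast-like nuclei, and 7 of these were 2-fold or more higher in mesoderm and 0 lower. Over all 15015 genes with that many UMIs, 7.07% were 2-fold or more higher and 11.6% lower. In cluster 11 against epiblast the same 7 genes were higher and 0 lower, where 5.1% of 14656 genes were higher and 10.8% lower. In cluster 4 only Dll1 was higher and 0 were lower (2.09% and 3.15% of genes), and between mesoderm-like nuclei and cluster 11 only Mesp2 differed, being lower in mesoderm (1.29% of 12442 genes lower, 2.52% higher). The 7 genes kept their mesoderm over epiblast call in every other clustering and filter tried. The cluster 11 values did not carry over to whichever cluster took the streak place: there 0 to 3 of the genes were 2-fold or more apart from epiblast in the 6 other clusterings.

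**Figure D2:**
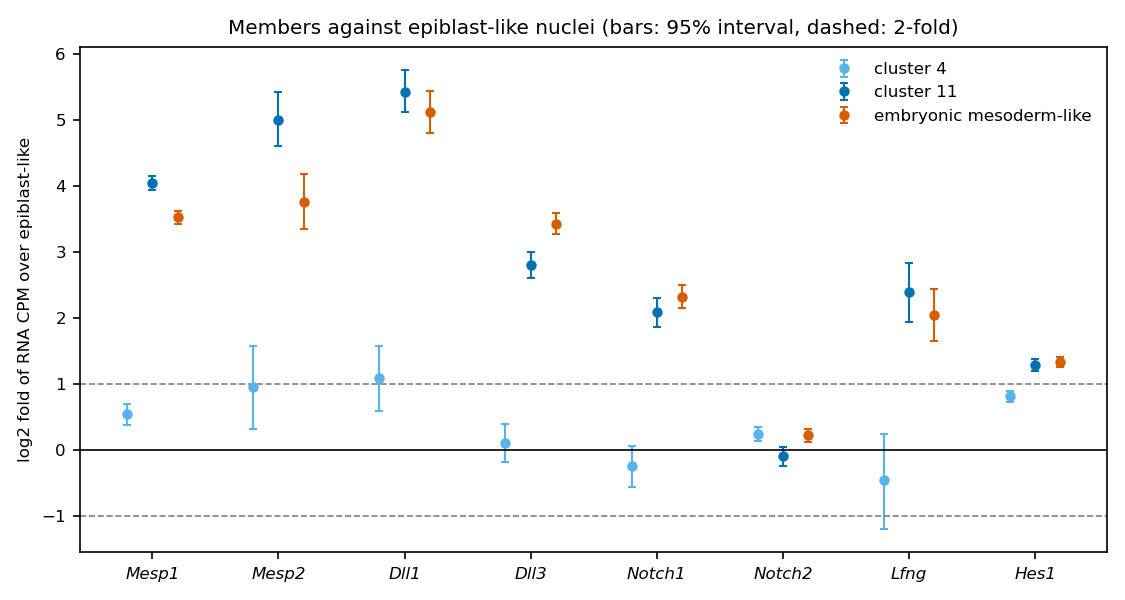
Log2 fold of the RNA level over epiblast-like nuclei for cluster 4, cluster 11 and embryonic mesoderm-like nuclei, with 95% intervals from counting error; dashed lines mark 2-fold. In cluster 11 and mesoderm-like nuclei 7 of the 8 genes lie above the upper line and Notch2 lies near 0, while in cluster 4 only Dll1 passes it.

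Free RNA in the droplets can give a nucleus a UMI of a gene it does not express, so the share of nuclei with a UMI was set beside visceral endoderm-like nuclei, after each nucleus was thinned to 5000 UMIs. Thinning left out 376 epiblast-like nuclei, 33 of cluster 4, 16 of cluster 11, 114 mesoderm-like and 130 visceral endoderm-like nuclei. A Mesp1 UMI was found in 81.9% of cluster 11 (78.1% to 85.2%, exact binomial), 69.6% of mesoderm-like, 14.7% of cluster 4, 12.5% of epiblast-like and 12.1% of visceral endoderm-like nuclei. The intervals of the last 2 shares overlapped. The summed levels did not: 28.3 CPM (26.7 to 30.1) in epiblast-like and 23.3 CPM (21.5 to 25.2) in visceral endoderm-like nuclei, with epiblast cluster 5 at 42.8 CPM and the other epiblast clusters at 26.2 and 23.0 CPM. Unthinned, the shares were 91.6%, 80.8%, 28.1%, 22.2% and 24.7% in the same order, at median depths of 10883, 10376, 10493.5, 9963.5 and 12429 UMIs. The visceral endoderm-like level of Mesp1 was 7.16% of the mesoderm-like level, and over Mesp2, Dll1, Dll3, Notch1 and Lfng this ran from 3.26% to 6.71%. The part of free RNA in these low levels was not tested.

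Mesp2 UMIs were in 22.8% of cluster 11, 9.29% of mesoderm-like and 0.399% of visceral endoderm-like nuclei after thinning. For Dll1 the shares were 34.2% in cluster 11, 30.9% in mesoderm-like and 1.54% in visceral endoderm-like nuclei, and for Dll3 they were 28.3%, 40.1% and 2.74%. Notch1 UMIs were in 20.7%, 22.7% and 1.42%, and Lfng UMIs in 4.43%, 4.65% and 0.114% of the same 3 classes. Unthinned, cluster 11 and mesoderm-like shares were 35.9% and 15.8% for Mesp2, 59.0% and 48.0% for Dll1, 47.6% and 58.2% for Dll3, 39.2% and 39.8% for Notch1, and 12.9% and 10.0% for Lfng. Notch2 was found in 29.3% to 37.5% of all 5 classes, visceral endoderm-like nuclei included. Hes1 was in 57.6% of cluster 11, 56.2% of mesoderm-like, 48.3% of cluster 4, 33.5% of epiblast-like and 23.1% of visceral endoderm-like nuclei. The order of the shares followed the order of the CPM for Mesp1, Mesp2, Dll1 and Dll3.

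**Figure D3:**
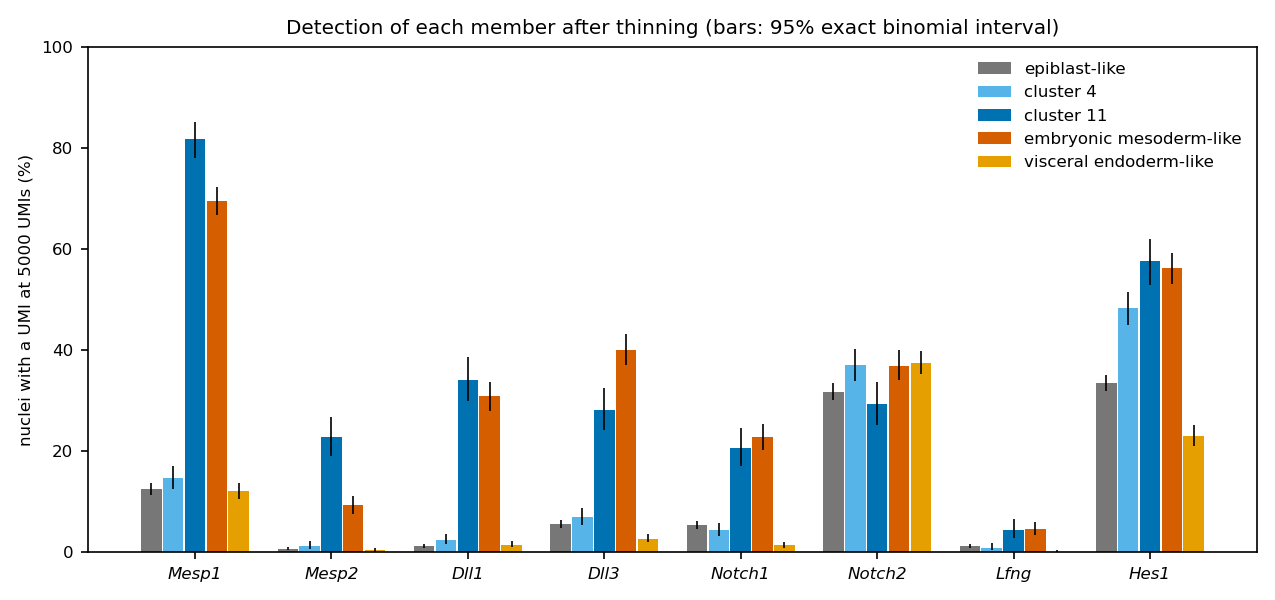
Share of nuclei with at least 1 UMI of each gene after thinning every nucleus to 5000 UMIs, by class, with exact binomial 95% intervals. Mesp1 reaches 81.9% of cluster 11 and 69.6% of mesoderm-like nuclei but lies at 12.5% in epiblast-like and 12.1% in visceral endoderm-like nuclei, and Notch2 lies between 29.3% and 37.5% in the 5 classes drawn.

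Several of the genes were often read from the same nucleus in cluster 11 and mesoderm, where each of the 6 below was also found more often by itself. The joint shares were not set against those that independent detection would give, so they show no link between the genes. Of Mesp1, Mesp2, Dll1, Dll3, Notch1 and Lfng, 3 or more were found in 28.3% of cluster 11 (134 of 474 nuclei) and 24.0% of mesoderm-like nuclei (248 of 1033), against 0.154% of epiblast-like (5 nuclei), 0 of cluster 4 and 0.114% of visceral endoderm-like nuclei (2). None of the 6 was found in 7.17% of cluster 11, 11.4% of mesoderm-like, 76.4% of epiblast-like and 82.7% of visceral endoderm-like nuclei. At 5 or more Mesp1 UMIs stood 14.6% of cluster 11 and 7.94% of mesoderm-like nuclei.

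Within mesoderm-like nuclei, a Mesp2 UMI was more frequent in nuclei that also had a Mesp1 UMI. Mesp2 was in 11.1% (8.92% to 13.7%) of the 719 nuclei with a Mesp1 UMI and in 5.10% (2.94% to 8.14%) of the 314 without. Of 9192 genes in at least 5% of these nuclei, 2.47% had a share 1.5 times or more as high among nuclei with Mesp1. At 3000 UMIs per nucleus the 2 shares were 7.72% and 3.85%, with intervals that overlapped. Hes1 was also more frequent beside Mesp1, at 59.5% (55.8% to 63.1%) against 48.7% (43.1% to 54.4%), and Notch2 was less frequent, at 33.7% (30.2% to 37.2%) against 44.6% (39.0% to 50.3%). The ratios were 1.22 and 0.755, and the share of all genes that differed this much was not taken. Genes outside the set also differed with and without Mesp1, such as Snai1 (53.3% and 39.5%) and Maml3 (58.1% and 67.5%). Dll1 (32.4% and 27.4%), Dll3 (40.3% and 39.5%) and Notch1 (22.7% and 22.9%) had overlapping intervals with and without Mesp1.

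Mesoderm-like nuclei with Mesp2 also held Dll3 and Lfng more often. Dll3 was in 54.2% (43.7% to 64.4%) of the 96 nuclei with a Mesp2 UMI and in 38.6% (35.5% to 41.8%) of the rest. Lfng was in 11.5% (5.86% to 19.6%) of nuclei with Mesp2 and 3.95% (2.80% to 5.40%) of those without, intervals that did not overlap; Lfng was in under 5% of these nuclei. For Dll3 the ratio was 1.4, and the share of all genes reaching that ratio was not taken. Of the genes in at least 5% of nuclei, 3.78% reached 1.5 beside Mesp2, a count that leaves out Lfng. Dll1 also had a ratio of 1.4 beside Mesp2, at 41.7% (31.7% to 52.2%) against 29.8% (26.9% to 32.8%), with overlapping intervals. These shares therefore show no link particular to Dll3 and Lfng. Dll3 was in 46.4% of the 319 nuclei with Dll1 and 37.3% of those without, with a lower bound of 40.8% against an upper bound of 40.9%. For the ligand Dll1 and its receptor, Notch1 was in 27.0% of nuclei with Dll1 (22.2% to 32.2%) and in 20.9% of those without (17.9% to 24.0%), and these intervals overlap. In cluster 11 the intervals of both genes overlapped: Dll3 was in 28.7% of nuclei with Mesp2 and 28.1% of those without, and Lfng in 4.63% and 4.37%. The 1 pair of genes whose intervals were apart in cluster 11 was Dll3 and Lfng, with Lfng in 9.70% (5.27% to 16.0%) of nuclei with Dll3 and 2.35% (1.02% to 4.58%) of those without. Lfng was in 4.43% of cluster 11. Of 9084 genes in at least 5% of these nuclei, 393 were 1.5 times or more as frequent beside Dll3. In cluster 11 the Mesp1 and Mesp2 pair was at 24.0% (19.8% to 28.5%) with Mesp1 and 17.4% (10.1% to 27.1%) without, which overlap, and 8.72% of genes were 1.5 times or more as frequent beside Mesp1 there. The nuclei of a class come from 1 library, so these intervals do not cover variation between embryos.

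The largest changes in accessibility around Mesp1, Dll1 and Notch1 lay at distal or internal peaks and not at their promoters. Of the 193 peaks, 179 had at least 50 counts over mesoderm-like and epiblast-like nuclei, and 42 were 2-fold or more open in mesoderm and 18 were 2-fold or more closed. Over all 194639 peaks with that many counts, 15.5% were higher and 17.1% lower. In cluster 11 it was 34 higher and 19 lower of 170 (11.5% and 17.7% of all peaks), and in cluster 4 it was 12 higher and 4 lower of 172 (4.93% and 7.2%). Between mesoderm-like nuclei and cluster 11 there were 6 higher and 4 lower of 138 (8.52% and 3.39%). Around the Mesp genes and Dll1 all calls in mesoderm over epiblast were higher: 6 of 19 peaks for Mesp1, 7 of 19 for Mesp2 (mostly the same peaks) and 7 of 14 for Dll1. In cluster 11 over epiblast, 18, 18 and 11 peaks of these genes could be compared. Some peaks, most of them at Dll1, thus reached the minimum of 50 counts only through their mesoderm counts. Around Lfng 2 of 23 were higher and 7 lower, and around Notch1 5 of 18 were higher and 3 lower.

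**Figure D4:**
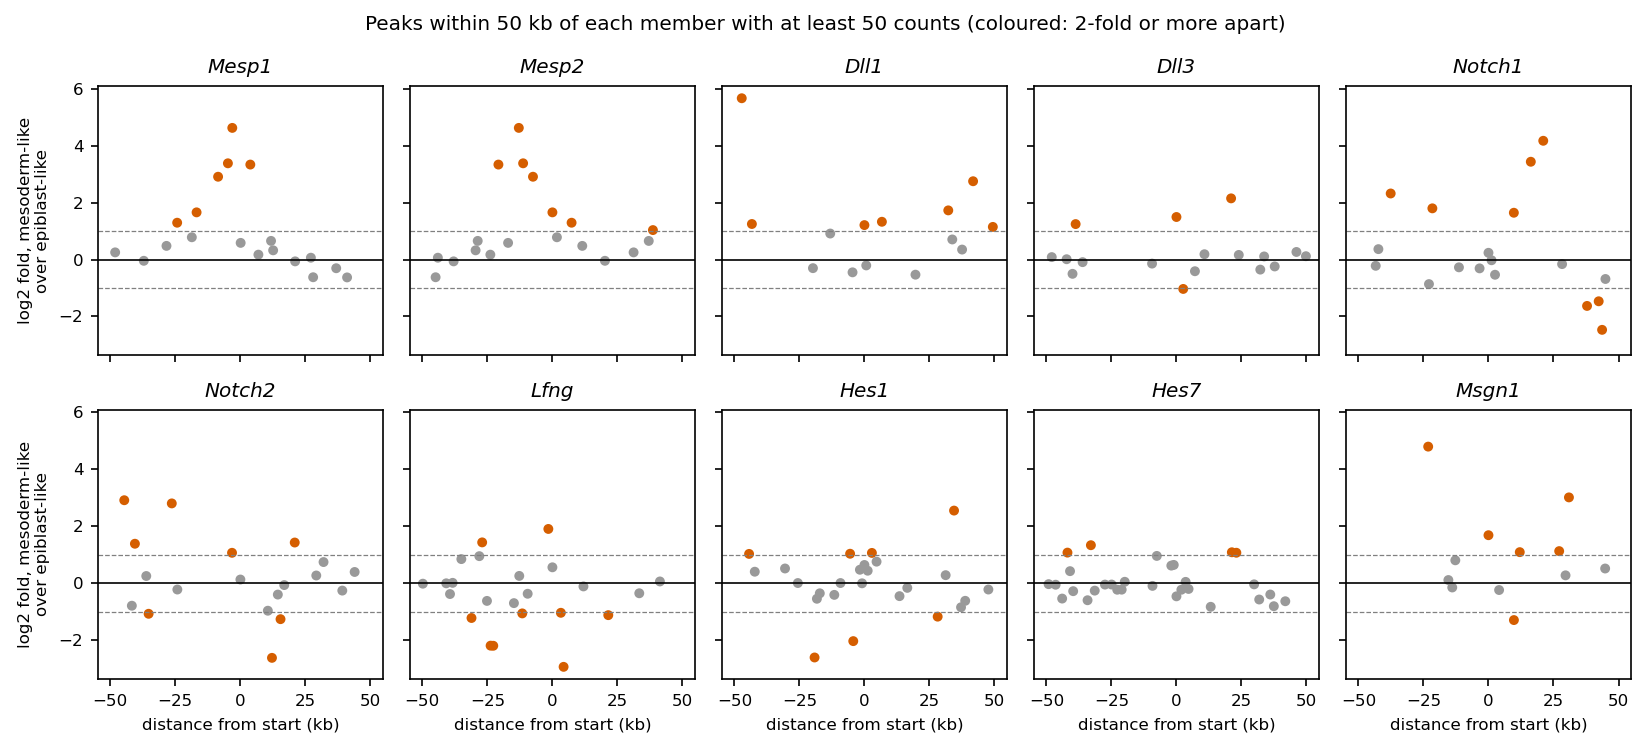
Log2 fold of accessibility in embryonic mesoderm-like over epiblast-like nuclei for every peak within 50 kb of each gene that had at least 50 counts, by distance from the start in kb (negative upstream, on the gene's strand). Coloured points are 2-fold or more apart: all those of Mesp1, Mesp2 and Dll1 are higher, while Lfng has 7 lower and 2 higher.

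The strongest Mesp peaks lay between and beside the genes. A peak 3118 bases upstream of Mesp1 (chr7:79796906-79797810, mm10) went from 2.37 CPM (here peak counts scaled to a class total of 1000000) in epiblast-like nuclei to 9.55 in cluster 4, 43.8 in cluster 11 and 58.4 in mesoderm-like nuclei, a fold of 24.6 (19.6 to 31.3) in mesoderm over epiblast. It was also open in extraembryonic mesoderm-like nuclei, at 55.7, and less so in visceral endoderm-like nuclei, at 13.2. A peak 4801 bases upstream (chr7:79798589-79799463) went from 5.01 in epiblast-like nuclei to 7.94, 45.3 and 52.1, a fold of 10.4 (8.81 to 12.4). A peak 3819 bases downstream of the Mesp1 start (chr7:79789071-79789969) went from 4.75 to 14.7, 54.0 and 48.0, a fold of 10.1 (8.48 to 12.1). At all 3 peaks cluster 4 lay between epiblast and cluster 11. The first and the last of them were called higher in cluster 4 than in epiblast, while Mesp1 RNA in cluster 4 was 1.45-fold above epiblast.

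The promoters of the same genes moved less. The Mesp1 promoter peak (chr7:79792811-79793686) was at 17.1 in epiblast-like nuclei, 22.2 in cluster 4, 28.1 in cluster 11 and 25.7 in mesoderm-like nuclei, a fold of 1.5 (1.30 to 1.73), against 11.5 for its RNA. The Mesp1 stretch printed above begins past the upstream end of this peak. The Mesp2 promoter peak (chr7:79810633-79811520) went from 13.0 to 25.1, 38.8 and 41.0, a fold of 3.15 (2.76 to 3.60). Of the Mesp2 stretch printed above, 94 bases lie in that peak.

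**Figure D5:**
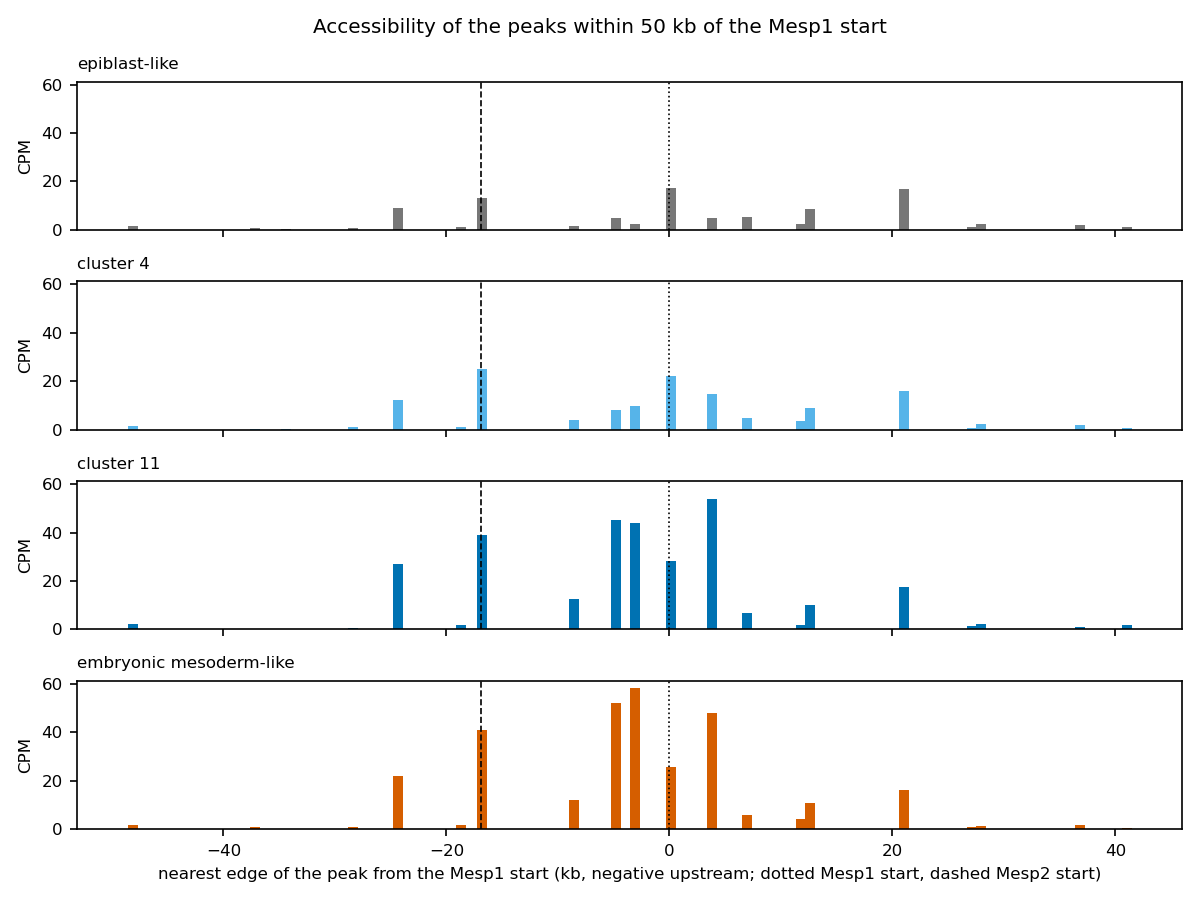
Accessibility (CPM, peak counts scaled to a class total of 1000000) of the 20 peaks within 50 kb of the Mesp1 start in epiblast-like, cluster 4, cluster 11 and embryonic mesoderm-like nuclei, by distance from the Mesp1 start in kb; the dotted line marks the Mesp1 start and the dashed line the Mesp2 start. The peaks 3118 and 4801 bases upstream and 3819 bases downstream are low in epiblast and tall in cluster 11 and mesoderm, while the promoter peak changes little.

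At Dll1, a peak 47171 bases upstream of the start (chr17:15423147-15424026), overlapping the neighbouring genes Fam120b and Gm49668, went from 0.36 in epiblast-like nuclei to 0.92 in cluster 4, 9.74 in cluster 11 and 18.2 in mesoderm-like nuclei. Its mesoderm over epiblast fold was 50.7 (30.5 to 90.5), on 382 and 24 counts, so it reached the minimum of 50 counts only through mesoderm. The Dll1 peak over the start (chr17:15375740-15376589) went from 18.4 to 19.2, 47.9 and 42.5, a fold of 2.31. A second Dll1 promoter peak, 700 bases inside the gene, was at 10.4 in epiblast-like, 9.93 in cluster 11 and 9.03 in mesoderm-like nuclei, a fold of 0.867. The Dll3 promoter peak (chr7:28301909-28302666) went from 12.4 to 16.0, 32.6 and 34.9, a fold of 2.82. Each ligand's peak over the start stood at a similar level in cluster 11 and mesoderm-like nuclei.

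At Notch1 the promoter was at 33.8 in epiblast-like and 39.8 in mesoderm-like nuclei, a fold of 1.18, and the changes lay inside the gene. A peak 16279 bases into Notch1 (chr2:26486672-26487543) went from 3.63 in epiblast-like nuclei to 6.43, 39.3 and 39.2, a fold of 10.8. A peak 21063 bases in (chr2:26481853-26482759) had a fold of 18.0 but was higher still in visceral endoderm-like nuclei (29.8 against 17.8), where Notch1 RNA was at 2.98 CPM. A peak 43689 bases in (chr2:26459262-26460133) closed from 29.6 to 5.35, a fold of 0.181. The Notch2 promoter was at 41.7 in epiblast-like and 45.7 in mesoderm-like nuclei, a fold of 1.09.

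From epiblast-like to mesoderm-like nuclei, Lfng RNA rose while most called peaks around it closed. The Lfng promoter peak went from 35.4 in epiblast-like nuclei to 58.3 in cluster 11 and 52.2 in mesoderm-like nuclei, a fold of 1.47, and it covers the whole Lfng stretch printed above with its 2 matches to the RBPJ letters. A peak 4300 bases downstream of the start (chr5:140611620-140612432) fell from 34.4 to 12.4 in cluster 11 and 4.49 in mesoderm-like nuclei, a fold of 0.131. A peak 22741 bases upstream went from 42.7 to 26.3 and 9.31, a fold of 0.218. The Hes1 peak over the start went from 22.3 to 34.8, a fold of 1.56, while a second Hes1 promoter peak, 915 bases upstream, was at 36.2 in epiblast-like and 36.1 in mesoderm-like nuclei. The Hes7 promoter went from 13.5 to 9.84, a fold of 0.727, below the 2-fold used here. Msgn1, with almost no RNA, had 5 of 12 peaks higher and 1 lower in mesoderm-like nuclei, against 15.5% and 17.1% of all peaks. The lower one, 9783 bases downstream, went from 6.91 to 2.82. Among the higher ones a peak 30939 bases downstream (chr12:11177200-11178033) went from 1.90 in epiblast-like nuclei to 7.44 in cluster 4, 24.2 in cluster 11 and 15.4 in mesoderm-like nuclei, a fold of 8.08. A peak 23177 bases upstream had a log2 fold of 4.80 in mesoderm-like over epiblast-like nuclei. The Msgn1 promoter peak was also higher, at a log2 fold of 1.69 in mesoderm-like nuclei and 0.72 in cluster 11.

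RNA and accessibility were also compared within single nuclei, with both thinned to 5000. Hes7 and Msgn1 had too few nuclei with RNA for this. Over 45 pairs of a peak and a class for the other 8 genes, the share of nuclei with the gene's RNA had overlapping intervals with and without counts in the peak, with 1 exception; some pairs held as few as 20 nuclei with RNA. In mesoderm-like nuclei, Mesp2 RNA was in 16.9% (11.9% to 23.1%) of the 189 nuclei open at the peak 11264 bases upstream of Mesp2 (the one 4801 bases upstream of Mesp1) and in 7.5% (5.56% to 9.84%) of the 627 others. In cluster 11 the same comparison went the other way, 15.8% of 95 against 25.6% of 351. Across the 19 clusters the RNA level was correlated with the promoter peak at Pearson r = 0.93 for Dll3, 0.90 for Lfng, 0.85 for Notch1, 0.80 for Dll1 (its other promoter peak 0.43), 0.72 for Mesp1, 0.69 for Mesp2 and 0.33 for Notch2, and at 0.25 and -0.39 for the 2 Hes1 promoter peaks. For distal peaks r was 0.85 at the Dll1 peak 47171 bases upstream, 0.67, 0.84 and 0.72 at the Mesp1 peaks 3118 and 4801 bases upstream and 3819 bases downstream, and 0.76, -0.22 and 0.35 at the Notch1 peaks 16279, 21063 and 43689 bases in. At the Lfng peaks 4300 bases downstream and 22741 bases upstream, which closed in mesoderm-like nuclei, r across the clusters was 0.42 and 0.50. The distal and internal peaks named here were chosen for large folds between classes made of these same clusters, so their r gives no separate support. Over all Hes1 peaks compared, r ran from -0.66 (9208 bases upstream) to 0.85 (2871 bases downstream). The clusters share 1 library and these are descriptions.

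The other genes of the Notch pathway were called in both directions or not at all. Of 8 other ligands and receptors, 6 could be compared and 2 were higher and 1 lower in mesoderm over epiblast, with a median log2 fold of -0.37 (all genes 0.0024). Over all genes 7.07% were higher and 11.6% lower, and the counts of the next lists are to be read against these shares. Jag1, a ligand of the Serrate type, went from 17.3 to 72.7 CPM (4.21-fold) and Dlk1, a Delta-like protein, from 5.02 to 13.3 CPM (2.66-fold), while Jag2 went from 5.83 to 1.46 CPM (0.251-fold). Of 23 genes of receptor processing and glycosylation, 22 could be compared, 0 were higher and 5 lower (median -0.04): Dtx1, Dtx4, Mfng, Psen2 and Numbl. Dtx1, a Deltex ubiquitin ligase, went from 7.77 to 0.651 CPM, and Mfng, a fringe enzyme like Lfng, from 1.83 to 0.651 CPM, each on 8 UMIs in mesoderm. Dtx1, Dtx4, Mfng and Numbl, and Jag2 among the ligands, reached the minimum of 50 UMIs only through their epiblast counts. Of 20 nuclear effectors and targets, 16 could be compared and 4 were higher and 0 lower (median -0.01). These were the coactivator Maml2 (25.8 to 88.7 CPM), Id1 (113 to 322 CPM), the Notch feedback gene Nrarp (2.54 to 5.86 CPM) and the repressor Hey1 (3.11 to 7.16 CPM). Rbpj itself was at 148 and 133 CPM. Whether Notch signalling drove any of these changes, that of Id1 included, was not tested.

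Genes known beside the Mesp factors were counted with and without those that had helped to name the classes, whose direction is not a finding. Of 23 genes of the presomitic mesoderm and segmentation, 17 could be compared and 11 were higher and 0 lower in mesoderm (median log2 fold 1.28). Without Tbx6, Rspo3, Wnt3a, Fgf8 and Cdx1, which were class markers, it was 8 higher and 0 lower of 12 (median 1.24), against 7.07% and 11.6% of all genes. The forkhead factors Foxc2 (0.183 to 5.21 CPM, 28.4-fold) and Foxc1 (0.654 to 17.9 CPM, 27.4-fold) and the protocadherin Pcdh8 (2.15 to 29.3 CPM, 13.7-fold) led; Foxc2 and Foxc1 reached the minimum of 50 UMIs only through their mesoderm counts. Of 26 genes of cardiac and migrating mesoderm associated with Mesp1, 24 could be compared and 23 were higher and 1 lower (median 3.16). Without the class markers Eomes, T, Snai1, Hand1, Etv2, Pdgfra and Aplnr it was 16 higher and 1 lower of 17 (median 3.41). In cluster 11 over epiblast, 15 of these genes could be compared. Some of the 17 thus reached the minimum of 50 UMIs only through their mesoderm counts. Both lists were chosen with earlier results of these data known. Fgf10, a growth factor, went from 7.01 to 404 CPM (57.6-fold), and Gata6 and Gata4, heart and endoderm transcription factors, were 29.4-fold and 24.9-fold higher. In cluster 4 over epiblast, again without the class markers, the segmentation list had 4 higher and 1 lower of 10 and the Mesp1 list 3 higher and 0 lower of 15, against 2.09% and 3.15% of all genes.

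Across the 19 clusters and 14365 genes, the pattern most like that of Mesp1 was Snai1, which drives cells out of the epithelium (Pearson r = 0.92 of log2 levels), followed by Wnt2 (0.92) and Tbx6 (0.91); Snai1 and Tbx6 are among the markers that named mesoderm. The gene most like Mesp2 was Dll1 (0.94), and the reverse held too, with Foxc1 and Lefty2 next for Mesp2 (both 0.91); Lefty2 is also one of the mesoderm markers. Dll3 was most like Chst2 (0.92), Lfng most like Cdh20 (0.94), Hes1 most like Cdh2 (0.92) and Notch2 most like Ppp2cb (0.93). For Notch1 these were Sde2 (0.89) and 0610009E02Rik (0.88), a gene that overlaps the Notch1 locus, whose reads may not be separable from it. The clusters share depth and 1 library, and no p is given.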

How the data were processed

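RNA and accessibility were measured in the same nuclei, 1 library each. Per the submitters' processing notes and the file headers, the authors used Cell Ranger ARC 2.0.0 with mm10. The deposited values are raw counts, whole UMIs per gene and cut-site counts per peak. The table held 182201512 UMIs and 273131304 peak counts. Most nonzero peak values (86.4%) were even, so peak intervals used fragments estimated as the count divided by 2, rounded up.

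A nucleus was kept if it had 1000 UMIs, 500 detected genes and 1000 counts in peaks, or more, with mitochondrial RNA no higher than 20%; 1154 doublet calls (7.52% of barcodes, Scrublet in scanpy 1.11.5) were removed. Leiden clusters (leidenalg 0.10.2, resolution 1, 30 components, 15 neighbours) came from accessibility, without peaks within 50 kb of the 10 genes. Clusters were named from marker lists by mean log2 fold. A name was withheld where another list held more of the cluster's 10 leading genes, or scored close to the best list. The rule was set after seeing the data. Folds are ratios of summed CPM with exact conditional 95% Poisson intervals (scipy 1.17.1), and a call needs 2-fold and 50 counts. Binomial intervals are exact. With 1 library per assay no test between conditions was possible. For shares, nuclei were thinned to 5000 UMIs. Likeness used log2(CPM + 1) over genes with at least 200 UMIs. The fold procedure was checked on simulated counts. The alternatives tried were median-of-ratios scaling, no count minimum, stricter filters, doublets kept, other resolutions, RNA clusters, all peaks and a 10 kb window.

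The named genes are the 10 members, up to 6 genes per other list and the genes most like each member. The members and lists were chosen with earlier results of these data known. Promoters are RefSeq's (GRCm38.p6); exon and intron positions of the peaks were not analysed here.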

Additional observations from a re-analysis of the deposited data

How the results depend on the processing

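The mesoderm-like over epiblast-like results held under the alternatives run: 7 members were 2-fold or more apart in RNA under each of them, and the list genes called numbered 47, with 44 to 56 in the alternatives. The peaks called in that comparison numbered 60 and stayed between 48 and 63, except for a window of 10 kb, which holds fewer peaks and gave 20.

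Results for the cluster in the streak place depended on the clustering, because a different cluster took that place. Members called over epiblast numbered 7 for cluster 11, but 2 with at least 2000 UMIs and 2000 peak counts, 0 with doublet calls kept, 2 at resolution 0.5, 2 at resolution 2, 3 with classes from RNA clusters and 2 with all peaks in the clustering. Members called between mesoderm and streak went from 1 to 6 in each of those 6, and to 3 with no filter on low counts. Peaks called over epiblast went from 53 to 17, 18, 21, 32, 30 and 16 in the same order of settings, and to 15 with the 10 kb window. Added after seeing the data, cluster 4 in place of cluster 11 gave 1 member over epiblast, 6 between mesoderm and streak and 16 peaks; leaving cluster 5, which had a low median of 3826 peak counts, out of the epiblast class gave 7 members and 51 peaks over epiblast for cluster 11.

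Log2 folds of the streak class over epiblast that changed sign, in the order stricter filter, doublets kept, resolution 0.5, resolution 2, RNA clusters, all peaks and cluster 4, were as follows. Lfng gave -0.61, -0.93, -0.22, -0.20, -0.18, -0.38 and -0.45. Notch1 gave -0.28, -0.28, -0.31, -0.15 (all peaks) and -0.25 (cluster 4), and Dll3 gave -0.11 (doublets kept) and -0.10 (resolution 0.5). Mesp2 in mesoderm over streak gave 2.97, 3.11, 2.96, 3.01, 2.31, 3.39 and 2.79. The Dll3 peak 38761 bases upstream gave -0.45, -0.37, -0.42, -0.12, -0.57, -0.28 and -0.25. The Dll1 peak 32237 bases downstream gave -0.060 (doublets kept) and -0.11 (resolution 2), the Dll1 promoter -0.022 (resolution 2), the Dll3 peak 32236 bases downstream 0.24 (resolution 2) and 0.31 (RNA clusters), and the Msgn1 peak 9783 bases downstream 0.058 (resolution 2).

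Shares of nuclei with a UMI changed with the thinning depth and with the classes. For Mesp1 the streak share of 81.9% became 66.6% at 3000 UMIs and 91.6% unthinned, and, where another cluster took the streak place at the same depth, 14.4% with doublets kept and 33.1% with RNA clusters, and the mesoderm share of 69.6% became 51.8%, 80.8%, 70.4% and 76.7%. Mesp2 among nuclei with Mesp1 went from 24.0% to 15.4%, 37.4%, 0.917% and 7.66% in the streak class and from 11.1% to 7.72%, 18.7%, 14.4% and 18.3% in mesoderm. Of 686 alternative values of 66 called folds, 652 kept their direction. Some of these could not change: dropping the count minimum altered no fold, and replacing 1 class altered no fold between the other classes. Leaving out the Mesp1 shares and those of Mesp2 in nuclei with Mesp1, 135 RNA values lay inside the main interval. Another 180 lay outside it and 21 changed the sign of a called fold. For peak folds these numbers were 590, 154 and 13. No paired analysis was possible because each assay has 1 library and no result comes from a test between samples.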
